A study of Mus musculus with 3 samples.

Results

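The dystrophin-glycoprotein complex was described in the adult mouse heart through 8 of its genes, Dmd, Utrn, Sgca, Sgcb, Sgcd, Sgce, Dag1 and Dtna. They were taken by gene symbol from the deposited count table, which holds 16587 genes, and all 8 were found. RNA was measured by high-throughput sequencing of poly(A) RNA from whole hearts of male wild-type mice at 12 weeks of age, in 3 libraries that form a single group (WT). There was no mutant, treated or second group, so each comparison below is between libraries or between genes within a library. The strain, and whether each library came from a separate animal, are not given in the sources used here, and the spread between libraries may be technical.

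The dystrophin-glycoprotein complex spans the plasma membrane of muscle fibres and ties the actin cytoskeleton to laminin outside the cell. Dystrophin binds actin inside and dystroglycan at the membrane, the sarcoglycans brace that link, and dystrobrevin and the syntrophins recruit signalling proteins to it. In people, loss of dystrophin causes Duchenne muscular dystrophy with cardiomyopathy. Loss of alpha-, beta- or delta-sarcoglycan causes limb-girdle muscular dystrophies in which the heart can also be affected.

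Libraries 1, 2 and 3 held 25311388, 26398140 and 24914479 counts. The heart label was checked against marker genes. All 6 cardiomyocyte markers were detected, a gene counting as detected where all 3 libraries reached 1 CPM (its share of the library's counts, times 1000000), and they took 5.94 ± 0.242% of the counts (SD, n = 3). Of 9 skeletal muscle markers analysed, Tnni2 alone was detected; their sum was 3.85 to 4.51 CPM per library and Myh1 had 0 counts throughout, which allows up to 0.114 to 0.120 CPM per library for counting error. All 6 smooth muscle, all 6 endothelial and all 6 fibroblast markers were detected as well, so the values below are those of whole heart tissue, in which fewer cells of a type and less RNA per cell cannot be told apart. The liver markers summed to 120, 3.79 and 7.10 CPM and the erythroid markers to 2221, 1047 and 1697 CPM in libraries 1, 2 and 3.

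All 8 genes of the complex were detected in every library, where 71.3% of all genes in the table were. Together they took 0.125%, 0.123% and 0.135% of the counts in libraries 1, 2 and 3. Their CPM, which grows with transcript length as well as with abundance, ran from 25.1 ± 0.394 for Sgce to 502 ± 32.1 for Dag1. The smallest count of any of them was 634, for Sgce in library 3, so counting error was small for every member.

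**Figure D1:**
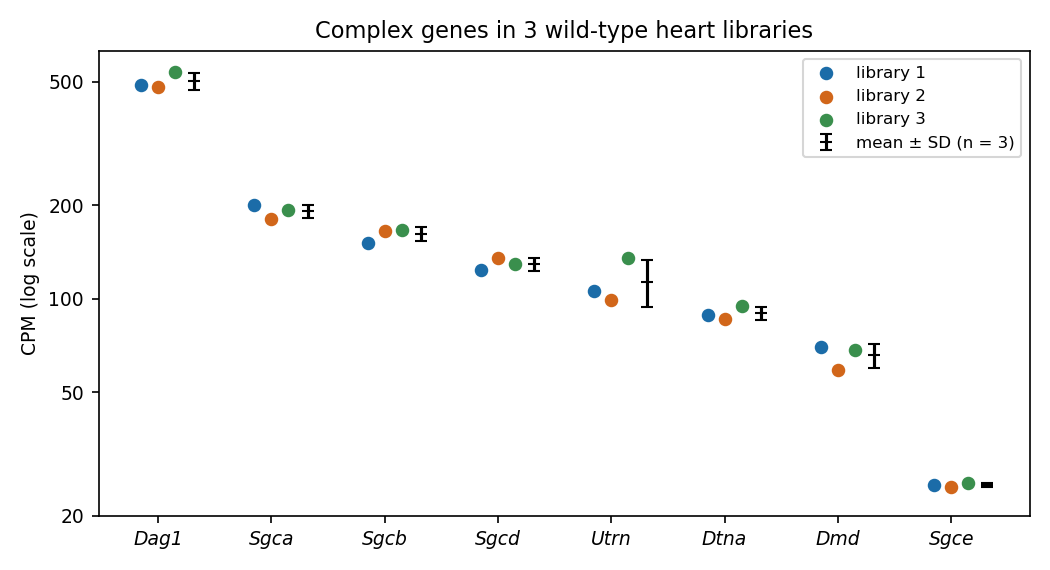
CPM of the 8 genes in each of the 3 libraries (points, log axis), with the mean and SD beside them. The libraries lie close together for each gene; Utrn has the widest spread, from 98.8 CPM in library 2 to 136 CPM in library 3.

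The stretches around the start sites of 4 of these genes are shown because they differ in base composition and in the short motifs they hold. RefSeq promoters (GRCm38.p6, 250 bases before to 50 after a start) matched 6 of the 8 genes with 8 windows in all. Capitals mark matches on either strand to 7 searched motifs, namely the E-box (letters CANNTG), the GC box (letters GGGCGG), the TATA box (letters TATAAA), the MCAT element (letters CATTCC), the CCAAT box, whose name spells its letters, the CArG box and the MEF2 site. The CArG box is the site known for serum response factor, and MEF2 factors and E-box-binding proteins are known regulators of muscle genes.
Dmd, chrX:82948620-82948919, plus strand: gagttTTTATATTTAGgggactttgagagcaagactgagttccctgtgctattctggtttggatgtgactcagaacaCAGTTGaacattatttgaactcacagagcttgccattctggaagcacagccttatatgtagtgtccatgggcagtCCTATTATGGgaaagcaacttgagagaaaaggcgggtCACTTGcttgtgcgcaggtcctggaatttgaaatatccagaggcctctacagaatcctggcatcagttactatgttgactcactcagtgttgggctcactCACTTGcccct
Utrn, chr10:12861686-12861985, minus strand: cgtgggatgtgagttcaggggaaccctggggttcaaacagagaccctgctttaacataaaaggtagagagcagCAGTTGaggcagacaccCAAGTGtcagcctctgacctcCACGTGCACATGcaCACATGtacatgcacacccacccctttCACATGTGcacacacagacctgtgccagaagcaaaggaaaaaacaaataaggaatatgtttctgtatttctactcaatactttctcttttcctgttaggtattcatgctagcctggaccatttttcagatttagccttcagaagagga
Sgca, chr11:94976278-94976577, minus strand: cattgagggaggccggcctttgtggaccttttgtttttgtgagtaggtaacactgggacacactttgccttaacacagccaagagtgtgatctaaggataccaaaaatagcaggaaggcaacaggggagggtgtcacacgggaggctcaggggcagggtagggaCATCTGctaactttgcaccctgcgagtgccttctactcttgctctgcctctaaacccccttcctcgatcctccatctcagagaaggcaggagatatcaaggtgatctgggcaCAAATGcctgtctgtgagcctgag
Dag1, chr9:108263766-108264065, minus strand: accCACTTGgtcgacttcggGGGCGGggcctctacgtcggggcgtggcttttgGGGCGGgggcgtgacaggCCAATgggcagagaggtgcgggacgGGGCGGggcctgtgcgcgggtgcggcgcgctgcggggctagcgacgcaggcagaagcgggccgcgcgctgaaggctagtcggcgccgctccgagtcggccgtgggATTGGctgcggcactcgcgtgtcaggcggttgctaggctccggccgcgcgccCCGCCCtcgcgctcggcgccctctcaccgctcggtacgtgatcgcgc

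The Dmd window belongs to the start from which the longest annotated coding sequence, of 11034 bases, is read. It held a CArG box beginning 98 bases before the start and 3 E-boxes, and a MEF2 site 244 bases before the start that overlaps its TATA box match. The CArG box letters were present in 1.63% of 32851 promoter windows, the MEF2 letters in 3.19%, the TATA box letters in 13.6% and the E-box letters in 72.3%. The Utrn window held 7 E-box matches, some of which overlap, and no match to the other motifs. The Sgca window held 2 E-boxes and no match to the other motifs. The Dag1 window had a GC content of 75.3%, against 45.7% for Dmd, 46.0% for Utrn, 52.7% for Sgca and a median of 52.7% over all windows, and held 4 GC boxes, 2 CCAAT boxes and 1 E-box. Another window of Dag1, which overlaps this one, had a GC content of 69.7%. Another start inside Dmd had 62.7%, 3 GC boxes and no E-box, CArG box or MEF2 site. The 3 GENCODE M21 transcripts that begin within 100 bases of it have no annotated coding sequence. Whether coding transcripts begin there was not tested. GC box letters were present in 35.7% of windows, CCAAT letters in 37.4% and MCAT letters in 14.7%. A match is a description of the letters and does not show that a factor binds there.

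Dmd encodes dystrophin, the rod-like linker between actin and the membrane. It stood at 69.7, 58.8 and 68.4 CPM in libraries 1, 2 and 3, lowest in library 2. Utrn encodes utrophin, the paralog of dystrophin that is found at neuromuscular junctions and in many cells outside muscle fibres. It stood at 106, 98.8 and 136 CPM, highest in library 3. The ranges of the 2 genes did not overlap, and Utrn was the higher in each library.

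Levels of different genes were compared per length, as TPM (counts divided by the kilobases of exon annotated for the gene and rescaled so that each library sums to 1000000). On this scale Dmd was at 8.73, 7.23 and 8.86 TPM and Utrn at 18.5, 16.9 and 24.4 TPM. The log2 ratio of Dmd to Utrn was -1.26 ± 0.19 (SD, n = 3), that is, Utrn stood 2.39-fold above Dmd. A ratio was said to exceed the spread where all 3 libraries shared its sign and its mean was over 2 SD, which this ratio did. The choice of length left Utrn higher, at 2.07-fold with the longest transcript or the longest protein-coding transcript and 1.84-fold with the coding length. No p is given for ratios, since with 3 libraries the smallest p of an exact sign-flip test is 0.25. Counts per gene do not separate the full-length dystrophin mRNA from the short ones that start inside the gene, and the annotated protein-coding Dmd transcripts span 1858 to 14910 bases.

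Dag1 encodes dystroglycan, a precursor cut into the laminin-binding alpha subunit and the membrane-spanning beta subunit to which dystrophin binds. Its CPM was the highest of the 8 genes, at 488, 480 and 539 in libraries 1, 2 and 3. Per length it reached 229, 221 and 261 TPM, above 96.3% of the 16077 genes with a length. The log2 ratio of Dmd to Dag1 was -4.84 ± 0.12, so Dag1 was 28.7-fold higher per kilobase, and by 20.2- to 31.6-fold with the other lengths. Its ligand chain Lama2, the laminin alpha2 chain of muscle basement membrane, was at 21.3 ± 3.96 TPM, and the log2 ratio of Dag1 to Lama2 was 3.49 ± 0.13. This 11.2-fold difference was 7.41- to 15.2-fold with the other lengths. Both differences exceeded the spread between libraries.

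The sarcoglycans are small membrane proteins that assemble around dystroglycan. Sgca, alpha-sarcoglycan, known as restricted to striated muscle, stood at 200, 181 and 192 CPM, and Sgcb, beta-sarcoglycan, at 152, 165 and 167 CPM. Sgcd, delta-sarcoglycan, which forms the core of the complex with beta-sarcoglycan, was at 123, 135 and 129 CPM. In CPM, the order Sgca, Sgcb, Sgcd was the same in all 3 libraries. Sgca peaked in library 1 and Sgcd in library 2. Sgcb peaked in library 3 with library totals, but in library 2, as Sgcd did, with the TMM normalization used below. Sgce, epsilon-sarcoglycan, the relative of alpha-sarcoglycan made in many tissues and in mice expressed from the paternal allele, was at 25.1, 24.7 and 25.4 CPM.

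Per kilobase of annotated exon Sgca stood at 331 ± 21.8 TPM, Sgcb at 119 ± 7.69 TPM, Sgcd at 46.9 ± 2.02 TPM and Sgce at 7.08 ± 0.293 TPM. Sgca exceeded Sgce by a log2 ratio of 5.54 ± 0.06, or 46.6-fold, the widest gap among the sarcoglycan pairs compared. This fold depended on length, since Sgce has 10612 bases of annotated exon but 1776 bases in its longest protein-coding transcript. It was 19.5-fold with the longest transcript, 9.31-fold with the coding length and 7.85-fold with the longest protein-coding transcript, and Sgca was higher in every library in each case.

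The levels of Sgca, Sgcb and Sgcd among themselves could not be ordered independently of length. Sgcb exceeded Sgcd by 1.35 ± 0.04 on the log2 scale with all annotated exon, by 0.55 with the longest transcript and by 0.17 with the coding length, and it was lower, at -0.31, with the longest protein-coding transcript. Sgca exceeded Sgcb by 1.47 ± 0.14 with all annotated exon and by 1.38 with either transcript length, and was level with it, at -0.028, with the coding length. Sgca exceeded Sgcd 7.05-fold with all annotated exon, 3.83-fold with the longest transcript, 2.11-fold with the longest protein-coding transcript and 1.11-fold with the coding length, the last of which did not exceed the spread.

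Of the summed TPM of these 4 sarcoglycans, Sgca made up 67.9%, 63.7% and 65.2% in libraries 1, 2 and 3, Sgcb 23.7 ± 1.53%, Sgcd 9.31 ± 0.619% and Sgce 1.41 ± 0.0150%. With the coding length the shares were 33.0 ± 2.07% for Sgca, 33.6 ± 1.24% for Sgcb, 29.8 ± 1.11% for Sgcd and 3.54 ± 0.0700% for Sgce. Sgce was the smallest share under all 4 lengths, at most 6.40 ± 0.0289%, while Sgca led the others under all but the coding length, where the ranges of Sgca and Sgcb overlapped.

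**Figure D2:**
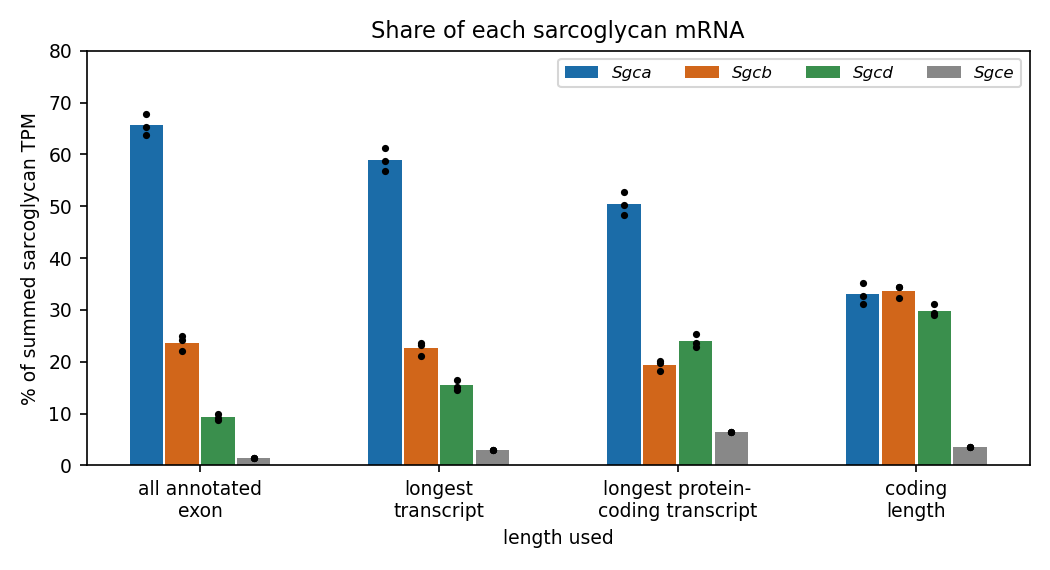
Share of each sarcoglycan in the summed TPM of 4 sarcoglycans under 4 ways of setting gene length (bars, mean of 3 libraries; points, libraries). Sgce stays the smallest at 1.41% to 6.40%, and Sgca falls from 65.6% with all annotated exon to 33.0% with the coding length.

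Dtna encodes alpha-dystrobrevin, a relative of dystrophin that binds it and carries syntrophins. It stood at 88.4, 86.0 and 94.5 CPM and at 15.6, 14.9 and 17.2 TPM. Per kilobase Dtna was 1.92-fold above Dmd (log2 ratio of Dmd to Dtna -0.94 ± 0.10), and 3.24-fold above it with either transcript length and 6.75-fold with the coding length. Its paralog Dtnb, beta-dystrobrevin, known mainly from tissues other than muscle, had 87, 105 and 94 counts. Dtna exceeded Dtnb by a log2 ratio of 3.76 ± 0.13, or 13.6-fold, and by 14.03- to 21.1-fold with the other lengths. Of the annotated exon of Dtna, 90 bases (0.532%) overlap an antisense gene, and strandedness was not stated; the other members share no exonic bases with another gene in GENCODE M21.

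Set in order per kilobase of annotated exon, the levels ran Sgca, Dag1, Sgcb, Sgcd, Utrn, Dtna, Dmd and Sgce, from 331 down to 7.08 TPM. The neighbours Utrn and Dtna, and Dmd and Sgce, had overlapping ranges over libraries and did not differ beyond their spread. Of 28 pairs of members, 28 kept their order in all 3 libraries when compared within a library with all annotated exon, and 21 kept it under all 4 lengths as well. Sgca, Dag1, Sgcb and Sgcd each stood above Utrn, Dtna, Dmd and Sgce in every library under every length, the smallest difference being 1.93-fold, for Sgcd over Dtna. Dmd stood below Utrn and Dtna in every library under every length. Some orders did not hold in every library under every length. They were those of Sgca with Dag1 and with Sgcb, of Sgcb with Sgcd, of Utrn with Dtna, and of Utrn, Dtna and Dmd with Sgce.

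**Figure D3:**
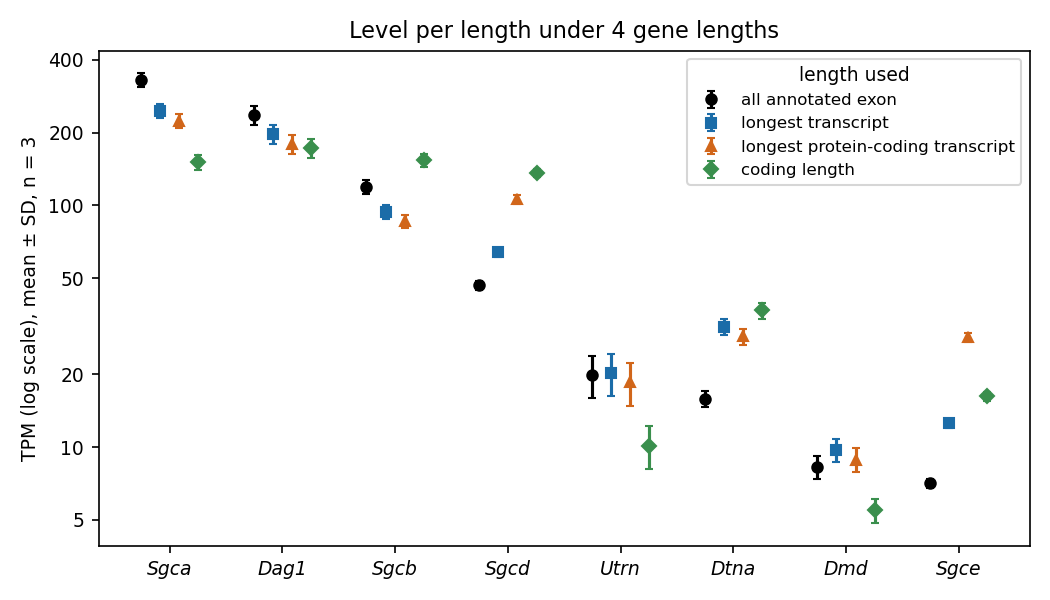
TPM of the 8 genes (log axis; mean ± SD, n = 3) with 4 ways of setting gene length. Sgca, Dag1, Sgcb and Sgcd lie above the other 4 genes under each length, and Sgce moves most, from 7.08 TPM with all annotated exon to 28.5 TPM with the longest protein-coding transcript.

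Differences between the libraries were small for most of these genes and widest for Utrn. None of the 8 was called as differing between libraries more than genes of its level do, against 0.591% of all genes. At that share, a count of 0 among 8 genes does not set them apart from all genes. The calls were by edgeR, adjusted over all 12521 genes tested. Before adjustment 1 of the 8, Utrn, had a p under 0.05, against 5.39% of all genes. With DESeq2's dispersion trend the count was also 0, against 0.511%. The median SD of log2 CPM was 0.07 over the 8 genes and 0.14 over all genes tested, and the SD of 7 of the 8 was below the latter. That comparison did not match genes for level. Among the 500 genes nearest in level, 69.8% had a smaller SD than Dmd, 44% than Sgca and 40.2% than Dag1. The share was 34.8% for Sgcb and 29.8% for Sgcd, and that for Dtna lay between those of Sgcd and Sgce. Sgce was the steadiest, with an SD of 0.017 on the log2 scale, and 1.20% of the 500 genes nearest to it in level had a smaller one. Its highest library was 1.03-fold above the lowest. Its counts did not differ beyond counting error (chi-square test, adjusted p = 0.931), so this SD does not measure a spread beyond that error.

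Utrn was the least steady, with an SD of 0.23 on the log2 scale, larger than that of 95.0% of the 500 genes nearest in level. Library 3 stood 1.37-fold above library 2. The difference did not pass the edgeR test after adjustment over all genes (adjusted p = 0.840), and its adjusted p was 0.739 to 0.9999 over the alternatives. Dmd followed with an SD of 0.13, its highest library 1.19-fold above its lowest (adjusted p = 0.999). For the other 6 genes the highest library was 1.03- to 1.12-fold above the lowest.

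The counts of 7 of the 8 genes, all but Sgce, differed between libraries by more than counting error (chi-square test, adjusted over all genes), as did those of 62.8% of all genes tested. The test compares these libraries only, and it called genes such as Dtna, whose highest library was 1.10-fold above its lowest. Without library 2 the count was 4 of 8, since Dmd, Dtna and Sgcd were no longer called.

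On TMM-scaled CPM, library 3 was the highest for 3 of the 8 genes (Utrn, Dag1 and Dtna), close to the share of 34.3% among all genes tested; with library totals alone it was also the highest for Sgcb and Sgce. Library 2 was the lowest for 6 of the 8, all but Sgcb and Sgcd, against 33.3% of all genes. Transcript length moved with the libraries. Among 742 genes whose longest transcript is 8 kb or longer, the median deviation of log2 CPM from the 3-library mean was -0.02, -0.11 and 0.13 in libraries 1, 2 and 3. Among 2380 genes under 2 kb it was 0.01, 0.06 and -0.07. Dmd (14910 bases) and Utrn (12382 bases) are in the longer class, and their own deviations were 0.10, -0.15 and 0.05 for Dmd and -0.07, -0.18 and 0.25 for Utrn. Both were lowest in library 2, as the longer class was, but Dmd was highest in library 1 and not in library 3. Sgca, with a longest transcript of 1724 bases, did not follow the class under 2 kb, at 0.08, -0.07 and -0.01.

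**Figure D4:**
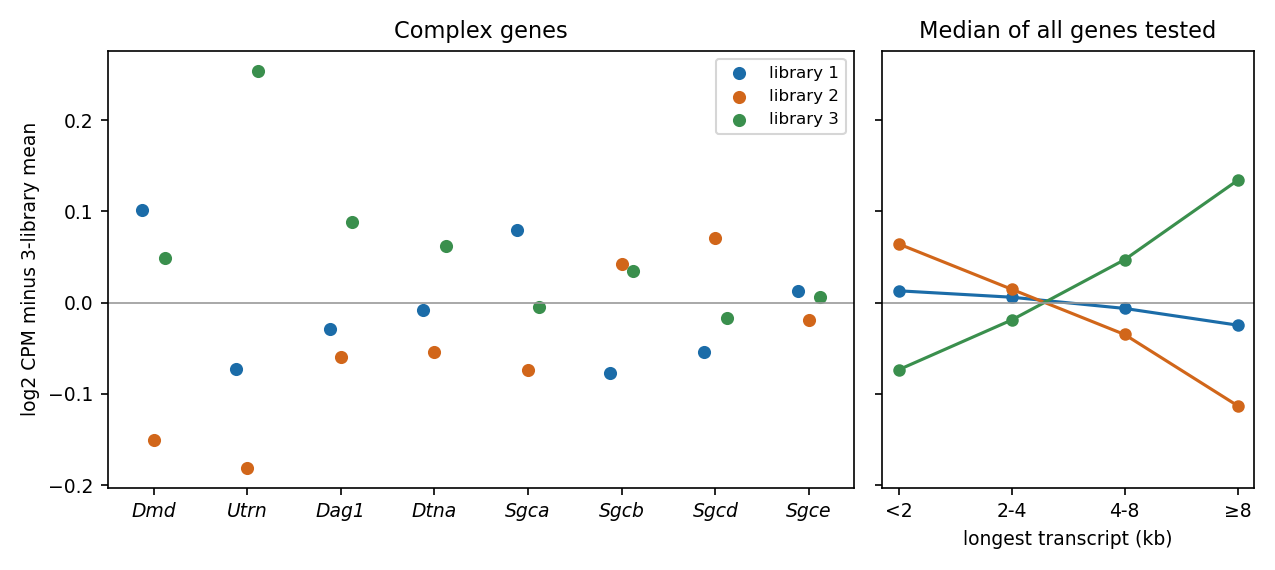
Deviation of log2 CPM from the gene's 3-library mean, for the 8 genes (left) and as the median of all genes tested by length of the longest transcript (right). Utrn spans -0.18 to 0.25, and long genes are higher in library 3 (0.13) and lower in library 2 (-0.11).

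Summed markers of other heart cells also differed between the libraries. By edgeR 0 of 6 smooth muscle, 0 of 6 endothelial, 1 of 6 fibroblast and 0 of 2 mesothelial genes tested varied, against 0.591% of all genes. An unadjusted p under 0.05 was seen for 4, 0, 2 and 1 of them, against 5.39%. The mesothelial genes tested were Wt1 and Efemp1. Msln, Upk3b, Lrrn4 and Krt19 did not pass the filter of edgeR, so the test says nothing about them. The counts of markers highest in library 3 used library totals, while the share over all genes, 34.3%, is on TMM-scaled CPM. The 6 smooth muscle markers summed to 584, 599 and 760 CPM in libraries 1, 2 and 3, and all 6 were highest in library 3. The 6 endothelial markers summed to 1245, 1195 and 1459 CPM, with 5 of 6 highest in library 3, and the 6 fibroblast markers to 1197, 1412 and 1456 CPM, with 4 of 6 highest there. The endothelial exception was Emcn, at 89.8, 88.8 and 71.8 CPM, and the fibroblast markers Dcn and Dpt were highest in library 2. No defining marker of these 3 lists was at 0. The 6 mesothelial markers summed to 36.7, 32.6 and 44.8 CPM, with 5 of 6 highest in library 3. Of these Msln had 0, 0 and 107 counts, Upk3b 2, 0 and 212, Lrrn4 0, 0 and 42 and Krt19, which the list of cytoplasmic and membrane partners also holds, 0, 0 and 29. Efemp1 had 420, 465 and 473 counts, while Wt1 went the other way, at 506, 395 and 252. The part of cell composition and of transcript length in the higher Utrn of library 3 was not tested.

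Compared by deviation over the 3 libraries, the genes nearest to Dmd among 8674 genes at 10 CPM or more included Pbxip1, Atp8a1, Arl6ip1 and Ap2b1. Their root mean square difference from Dmd was 0.0032 to 0.0053 on the log2 scale. With 3 libraries such likeness is common, and 4423 genes lay closer to Dmd than 0.14. Of the other members Sgca came nearest, at rank 690, and Sgcd was farthest, at rank 5356.

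The wider pathway was read from 6 lists, of which 50 genes were analysed, 42 were detected and 42 were tested. By edgeR 1 of the 42 varied between libraries after adjustment over all genes, against 0.591% of all genes, and 4 had an unadjusted p under 0.05, against 5.39%. Their median SD of log2 CPM was 0.15, against 0.14 over all genes, and DESeq2's dispersion trend called the same 1 gene, Hspg2. Sspn, which encodes the membrane protein sarcospan, a partner of the sarcoglycans, was at 119 ± 5.23 TPM and was not called as varying (edgeR adjusted p = 0.999). Among syntrophins and paralogs of the dystrophin family, 3 of 6 were detected, against 71.3% of all genes. Of these lists' genes 0 of 3 tested varied, against 0.591%, with 0 at an unadjusted p under 0.05, against 5.39%. The syntrophin Sntb2 was at 2.95 ± 0.497 TPM and its paralog Sntb1 at 1.83 ± 0.323 TPM, while Sntg1 had 0, 0 and 1 counts, Sntg2 4, 0 and 2 and the dystrophin-related Drp2 1, 12 and 16.

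Ligands in the matrix were detected for 9 of 10 genes, against 71.3% of all genes, and 1 of 9 tested varied, against 0.591%. Lamb2, the laminin beta2 chain (188 ± 17.05 TPM), Bgn, the proteoglycan biglycan (132 ± 23.6 TPM), Hspg2, the basement membrane proteoglycan perlecan (121 ± 34.7 TPM), and Lamc1, the laminin gamma1 chain (87.9 ± 16.1 TPM), were highest. Lama1, a laminin chain known mainly from embryos, had 1, 1 and 0 counts. The gene that varied was Hspg2, at 522, 462 and 745 CPM and thus highest in library 3 (edgeR adjusted p = 0.0301). Its adjusted p was 0.00641 to 0.0295 under the other normalizations, filter and dispersion. Without library 1, 2 or 3 it was 0.146, 0.259 and 0.9999, so the call was lost in each case. The unadjusted edgeR p was then 0.00031, 0.0023 and 0.249. Leaving out a library also lowers the power of the test, so the lost calls do not show that each library was needed.

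Genes of dystroglycan glycosylation, the process that also builds its laminin-binding sugar chain, were detected in 15 of 16 cases, against 71.3% of all genes. By edgeR 0 of 15 varied, against 0.591%, with 0 at an unadjusted p under 0.05, against 5.39%. B4gat1, a glucuronyltransferase that primes the chain (65.9 ± 6.92 TPM), Pomgnt1, which extends the O-mannose (47.4 ± 0.973 TPM), Dpm3, a subunit of the mannose donor synthase (46.9 ± 2.95 TPM), and Dolk, a kinase of the dolichol carrier (27.6 ± 1.42 TPM), were highest. Large2, which elongates the chain, had 8, 0 and 1 counts.

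Of 10 cytoplasmic and membrane partners 7 were detected, against 71.3% of all genes. By edgeR 0 of 7 tested varied, against 0.591% of all genes, with 2 at an unadjusted p under 0.05, against 5.39%; these were Plec and Synm, named after their values were seen. Cmya5, which encodes the dystrophin-binding muscle protein myospryn (211 ± 26.6 TPM), Cav3, the caveolin of muscle (195 ± 17.04 TPM), Plec, the cytoskeletal linker plectin (52.9 ± 11.5 TPM), and Ank2, the membrane adaptor ankyrin B (10.4 ± 1.76 TPM), were highest. Nos1, the nitric oxide synthase that binds the complex in skeletal muscle, had 5, 2 and 8 counts. The keratin Krt8 had 17, 2 and 8 counts and the keratin Krt19, also a mesothelial marker, 0, 0 and 29. The integrin system, a second link to laminin, had all 7 genes detected, against 71.3% of all genes. By edgeR 0 of 7 varied, against 0.591%, with 0 at an unadjusted p under 0.05, against 5.39%. Itgb1, the common beta subunit (331 ± 30.6 TPM), Itgb1bp2, its muscle binding partner melusin (316 ± 12.3 TPM), Ilk, a kinase-like adaptor (127 ± 2.98 TPM), and Tln1, the integrin activator talin (66.8 ± 6.15 TPM), were highest.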

How the data were processed

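The deposited table holds raw counts as whole numbers, in 1 column per library. Bowtie2 2.2.5, HISAT2 2.0.4, RSEM and the build GRCm39 appear in the submitters' processing notes, with no role or order; strandedness and filters were not stated. RSEM gives estimates, so the counts may be rounded estimates. Library totals are in the report, and a gene at 0 could have up to 3 counts. All 3 deposited columns were used.

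CPM used library totals and TPM used lengths matched by symbol from GENCODE M21 (GRCm38). Exon overlaps came from the same annotation, as did transcript starts, which were matched to promoter windows within 100 bases. No coordinates were carried over to GRCm39. Variation between libraries was tested with edgeR 4.0.16 in R 4.3.3 on genes passing its default filter: TMM normalization, an intercept-only negative binomial fit with trended dispersion, deviance against chi-square, and Benjamini-Hochberg adjustment at 0.05. Quasi-likelihood tests need a contrast, which a single group lacks. Deviations and their SD used TMM-scaled CPM. The test was checked on simulated data. Pair ratios had 0.5 counts added; ratios of members in the order had none. Members, lists, pairs and tests were chosen with earlier results of these data known. Alternatives were normalization (DESeq2 1.42.0), filter, dispersion trend, length, added counts, detection limit and leaving out each library; the longest protein-coding transcript as length was chosen after seeing the data. Named were all members, up to 4 genes of highest TPM and up to 3 below 1 CPM of each pathway list, the pairs' genes, and the 5 genes nearest to Dmd. Some genes that this rule or the lists name are not reported here, and the lists and pairs were counted without those of them they held.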

Additional observations from a re-analysis of the deposited data

How the results depend on the processing

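The count of 0 varying members and the count of 8 detected members were the same under every alternative run. The number of all genes varying between libraries was 74, 126 with no filter, and 17 to 51 when 1 library was left out. Genes differing beyond counting error numbered 7860, and 4861 to 5579 without 1 library; of the members 7 were called, and 4 to 6 without 1 library. Length set the levels. The summed TPM of the 8 genes was 785, and 676 with the longest transcript, 684 with the coding length, 680 with the longest protein-coding transcript and 1278 (as CPM) with no length correction. Of 9 pair ratios 9 exceeded the spread, and 7 to 9 did under the other lengths. The ratio of Sgcb to Sgcd reversed to -0.31 with the longest protein-coding transcript. That of Sgca to Sgcb fell to -0.028 with the coding length, where the 2 genes were level within the spread. Both changes came from the lengths entered. Leaving out a library or changing the added counts turned no pair ratio. No paired analysis was possible because all libraries form a single group. Counts per gene give no isoform levels.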
